A study of Mus musculus with 7 samples.

Results

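The genes of exosome tetraspanins and vesicle release were followed in muscle cells that had received exosomes from other muscle cells. They were chosen by name, not by any level, though earlier results of these data were known. The members were Cd9, Cd63, Cd81, Cd82, Cd53, Tsg101, Pdcd6ip, Rab27a, Rab27b and Flot1, and every probe carrying one of these names was taken. This gave 10 of the 31829 gene names on the array and 14 of its 39429 probes. The question was whether recipient cells altered the RNA of their own exosome machinery.

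RNA came from C2C12 cells, a mouse muscle line whose myoblasts fuse into myotubes (the cell line labels run from C2C12 to C2C18 over the samples, and all were taken as C2C12). They had been incubated with exosomes released by further C2C12 cells exposed to palmitate at 0.5 mM (EXO-Palm, 3 arrays) or to its carrier albumin alone (EXO-BSA, 4 arrays, the controls), and both groups therefore received exosomes. According to the study, the exosomes were collected after palmitate had been removed from the donors. The labels give the recipient cell type as myoblast and number the arrays as biological replicates, whereas the study calls the recipient cells myotubes, and no culture without exosomes was analysed here.

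Exosomes bud as small vesicles into endosomes and leave the cell when such an endosome fuses with the plasma membrane. Tetraspanins organise patches of membrane and are carried on exosomes, the ESCRT machinery with Tsg101 and Alix (Pdcd6ip) shapes and cuts off the vesicles, and the GTPases Rab27a and Rab27b bring the endosome to the cell surface. In muscle, Cd9 and Cd81 are known for their part in myoblast fusion and Cd82 as a surface protein of muscle stem cells, while Cd53 is known mainly from leukocytes.

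Cd53 was the member that rose with EXO-Palm, 4.51-fold (95% interval 2.91 to 6.98, 3 against 4 arrays). The other 12 tested probes, which cover the common exosome markers Cd9, Cd63 and Cd81, the ESCRT genes, Rab27b and Flot1, did not pass the test. Rab27a was not well above background on any array. By limma with Benjamini-Hochberg adjustment over all 21589 tested probes, 1 of the 13 tested member probes had an adjusted p under 0.05, beside 0.533% of all tested probes. Of those 115 probes 100 were higher (0.463%) and 15 lower (0.0695%) with EXO-Palm, and without normalisation between arrays 67 were higher and 49 lower. Among the 13 probes 4 were higher and 9 lower, with a median log2 difference of -0.10, beside a median of -0.02 over all tested probes, of which 47.3% were higher. At an unadjusted p under 0.05 there were 2 member probes, 1 higher and 1 lower, beside 4.85% of all tested probes higher and 5.19% lower.

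Values are the log2 of the scanner's background-subtracted signal minus the 75th percentile of the same array, so that 0 is that percentile. They show how 1 probe differs between arrays, and do not rank the genes. Between 49.5 and 70.8% of the spots of an array passed the scanner's flag for signal well above background, and 11 of the 14 member probes were so on all 7 arrays. A probe whose spot was left out as uneven or outlying was counted as not well above background on that array. This applied to Cd82 A_55_P2048794 on EXO-Palm 2, which read 46735 units. The 75th percentile itself lay between 549.4 and 1621 signal units, and no spot was saturated. There were 4 slides. EXO-BSA 1 and 2 shared slide 1 with EXO-Palm 1, and EXO-BSA 4 shared slide 3 with EXO-Palm 3, so 2 slides allow a comparison within a slide. Precision is limited by having 7 arrays, and p-values measure the spread between these samples, which the labels call biological replicates.

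Each probe is a DNA strand of 60 bases. The Cd53 probe is printed because it carries the main result, the pair of Cd82 probes because they behaved unlike each other on 1 array, and a Pdcd6ip probe because a further probe of that gene gave another value. They are written 5′ to 3′ as in the array files, with nothing in capitals since no single base bears on the result.
Cd53 A_51_P337675: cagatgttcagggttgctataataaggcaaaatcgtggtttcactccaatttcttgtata
Cd82 A_55_P2048800: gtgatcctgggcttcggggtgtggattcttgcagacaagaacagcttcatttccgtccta
Cd82 A_55_P2137927: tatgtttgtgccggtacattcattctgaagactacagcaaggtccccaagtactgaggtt
Pdcd6ip A_52_P452787: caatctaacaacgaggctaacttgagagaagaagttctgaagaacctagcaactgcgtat
On build mm9 the Cd53 probe lies at chr3:106565046-106566140 on the minus strand. This interval of 1095 bases is longer than the probe, so the probe joins sequence from both sides of an intron. The Cd82 probes lie at chr2:93274019-93274078 and chr2:93260018-93260077 on the minus strand. The Pdcd6ip probe lies at chr9:113570109-113570168, also on the minus strand. The annotation in the files gives gene and position, and exon or UTR was not given in the sources used here.

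**Figure D1:**
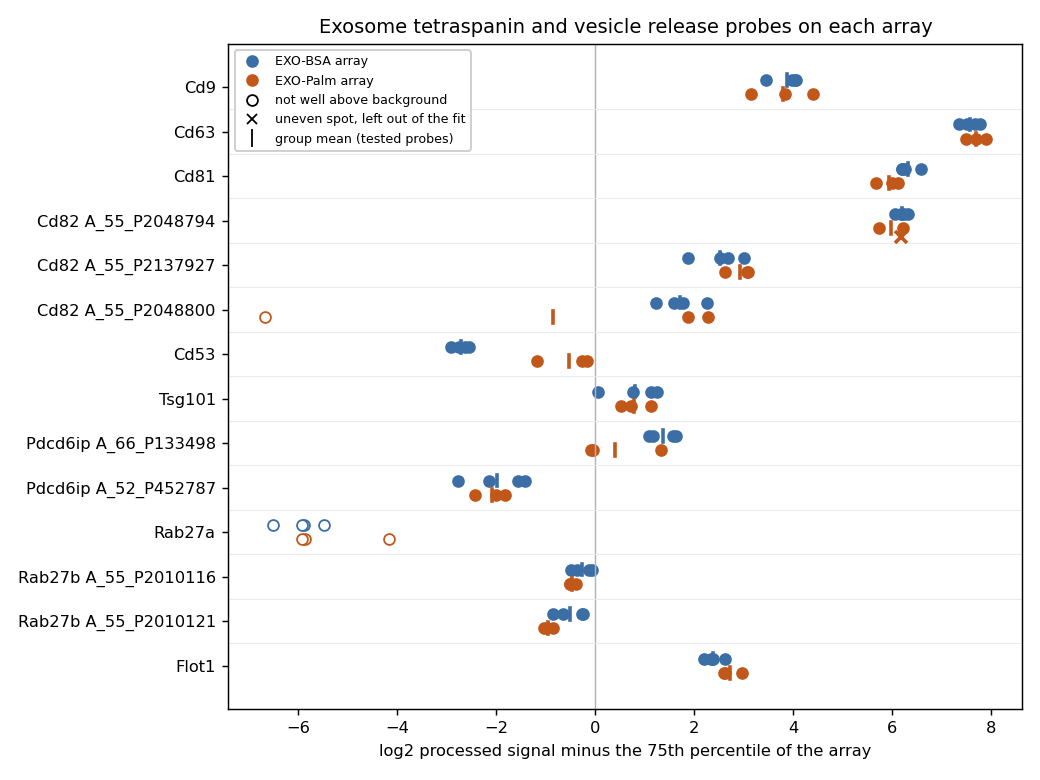
Value of each of the 14 probes (rows) on each array, as log2 signal relative to the array's 75th percentile. Dots are arrays, open dots were not well above background, the cross is an uneven spot left out of the fit and short bars are group means of tested probes. The Cd53 arrays form separate groups, from -2.92 to -2.55 with EXO-BSA and from -1.17 to -0.17 with EXO-Palm.

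Among the tetraspanins, Cd63, an endosomal protein and a standard exosome marker, had values of 7.66, 7.34, 7.50 and 7.77 on EXO-BSA arrays 1 to 4 and of 7.48, 7.69 and 7.90 on EXO-Palm arrays 1 to 3. The groups overlapped over most of their range. Their log2 difference was 0.12 (95% interval -0.35 to 0.60, limma adjusted p = 0.879), and within slides it was -0.02 on slide 1 and 0.13 on slide 3.

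Cd9 gave 4.03, 3.96, 3.44 and 4.05 with EXO-BSA, and 3.15, 3.83 and 4.39 with EXO-Palm. The EXO-Palm arrays held both the lowest and the highest value, and they reached from below to above the controls. This gave a log2 difference of -0.08 (95% interval -0.80 to 0.64, limma adjusted p = 0.949). Within slides the values parted, at -0.85 on slide 1 and 0.34 on slide 3.

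Cd81 gave 6.58, 6.26, 6.20 and 6.19 with EXO-BSA, and 5.66, 5.99 and 6.12 with EXO-Palm. All 3 EXO-Palm arrays lay below all 4 controls, although EXO-Palm 3 came within 0.1 of the lowest control. The log2 difference of -0.38 (SE 0.213) had a limma adjusted p of 0.597, and its unadjusted exact permutation p was 0.0286, the smallest that the 35 ways of parting the arrays allow. The direction turned under 2 alternatives, to 0.065 with the normexp background and to 0.060 with the authors' processed values. Groups without overlap were found for 3 of the 13 tested member probes, beside 11.3% of all tested probes. Of the 3, Cd53 was higher, beside 5.40% of all probes, and Cd81 and 1 Rab27b probe were lower, beside 5.87%.

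Cd82 was read by 3 probes. The probe A_55_P2048794 gave 6.31, 6.18, 6.06 and 6.24 with EXO-BSA and 5.73 and 6.21 with EXO-Palm 1 and 3. Its EXO-Palm 2 spot was marked as uneven and left out of the fit. The remaining EXO-Palm values lay below and inside the range of the controls, with a log2 difference of -0.23 (limma adjusted p = 0.792, 2 against 4 arrays).

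The probe A_55_P2137927 gave 1.88, 2.52, 2.69 and 3.00 with EXO-BSA and 3.07, 3.06 and 2.61 with EXO-Palm, a log2 difference of 0.39 (limma adjusted p = 0.691). EXO-Palm 3 fell among the controls, and slide 1 gave 0.88 where slide 3 gave -0.39.

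The probe A_55_P2048800 gave 1.24, 1.59, 1.77 and 2.25 with EXO-BSA and 1.87, 2.27 and -6.68 with EXO-Palm. On EXO-Palm 3 its signal was 5.3 units, not above background, and the scanner software marked that spot as not found. The log2 difference was -2.56 with an SE of 1.87 (limma adjusted p = 0.689), and it was 0.36 once spots marked as not found were left out. The 3 Cd82 probes thus gave differences of both signs, none of which passed the test.

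Cd53, the leukocyte tetraspanin, gave -2.92, -2.55, -2.75 and -2.63 on EXO-BSA arrays 1 to 4 and -0.17, -1.17 and -0.28 on EXO-Palm arrays 1 to 3. The lowest EXO-Palm array stood well above the highest control, and the probe was well above background on all 7 arrays. In signal units before normalisation it read 153.6, 154.3, 126.9 and 117.0 with EXO-BSA and 1443, 287.8 and 453.3 with EXO-Palm. The log2 difference was 2.17 (SE 0.277, 95% interval 1.54 to 2.80, limma adjusted p = 0.0170), and it was higher in 3 of 3 EXO-Palm arrays than in every control. By p it ranked 41 among all tested probes. The unadjusted exact permutation p was 0.0286, the smallest possible here.

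The Cd53 difference held within slides, at 2.56 on slide 1 and 2.36 on slide 3, and a limma model with slide as a block gave 2.48 (adjusted p = 0.0327). It was positive under all 31 alternatives in which the probe was fitted, between 1.55 and 2.49, and past the threshold in 20 of them, 1 of these being the t-test without adjustment. The lowest values were 1.55 with the normexp background, 1.59 without background subtraction and 1.85 with the authors' processed values. The call was lost without a probe filter (adjusted p = 0.102), without normalisation between arrays (0.0859), without EXO-Palm 1 (0.0702) and without EXO-Palm 3 (0.0973). Student's t-test after adjustment also lost it (0.182). The study names that test for comparing means in general, and limma for its arrays. With the tested probes held as for all arrays, a setting added after the data were seen, the Cd53 call was also lost without EXO-BSA 1 (0.0745), EXO-BSA 2 (0.0563) and EXO-BSA 3 (0.0672).

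**Figure D2:**
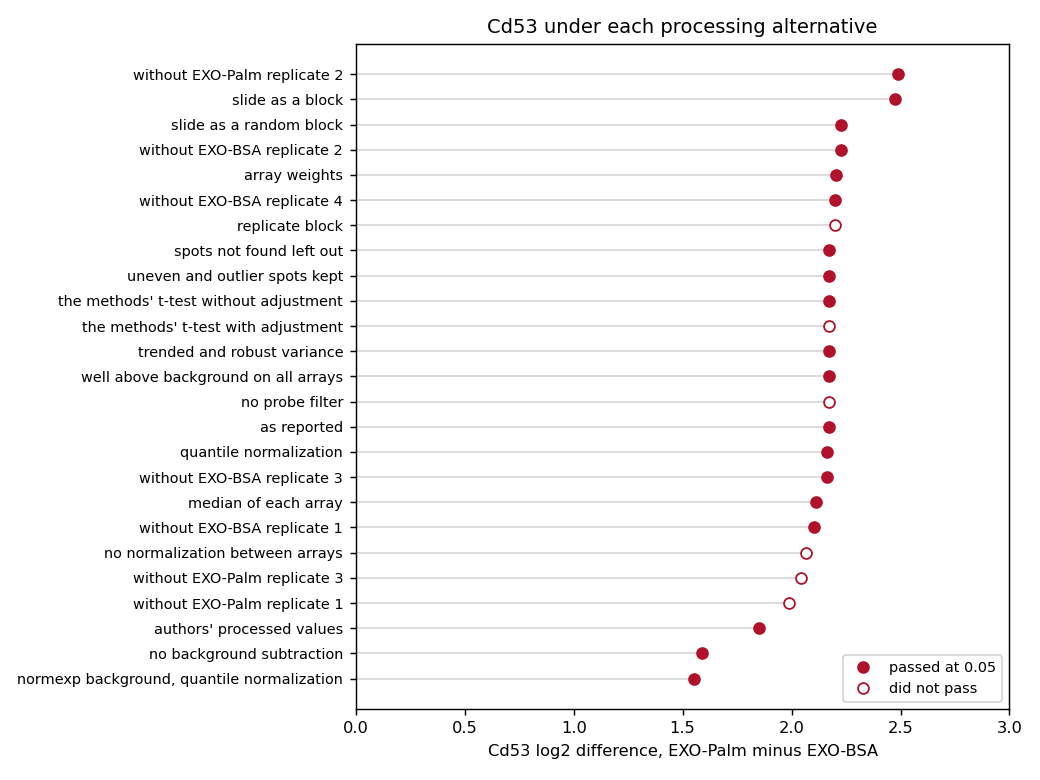
Log2 difference of Cd53, EXO-Palm minus EXO-BSA (x axis), as reported and under each alternative that was fitted (rows, with arrays left out under the filter of the remaining arrays). Filled dots passed at 0.05 and open dots did not, and all dots lie between 1.55 and 2.49.

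Of the ESCRT genes, Tsg101, an ESCRT-I subunit that binds ubiquitin-tagged cargo, gave 0.76, 1.25, 0.05 and 1.12 with EXO-BSA and 1.12, 0.52 and 0.73 with EXO-Palm. Every EXO-Palm array lay inside the range of the controls. Its log2 difference was -0.01 (95% interval -0.74 to 0.72, limma adjusted p = 0.997).

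Pdcd6ip encodes Alix, a partner of Tsg101 that also recruits ESCRT-III, and was read by 2 probes. The probe A_66_P133498 gave 1.62, 1.57, 1.17 and 1.07 with EXO-BSA and 1.33, -0.09 and -0.06 with EXO-Palm. EXO-Palm 2 and 3 lay below all controls, while EXO-Palm 1 lay among them. The log2 difference of -0.97 (95% interval -1.80 to -0.13) had an unadjusted limma p of 0.0278 and an adjusted p of 0.432, and within slides it was -0.27 on slide 1 and -1.13 on slide 3. The probe A_52_P452787 gave -2.78, -2.15, -1.57 and -1.43 with EXO-BSA and -1.82, -2.00 and -2.43 with EXO-Palm, all inside the range of the controls. Its log2 difference was -0.10 (limma adjusted p = 0.945), and it was positive on slide 1, at 0.64, and negative on slide 3.

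The second probes of Cd82, Pdcd6ip and Rab27b allow 5 comparisons between probes of 1 gene. Exact permutation tests over arrays of the change of that difference with the group gave unadjusted p-values from 0.0857 to 0.4, and the pairs read on 6 arrays, with 15 splits, could not have passed. For Pdcd6ip the probes differed by 3.34 on average with EXO-BSA and by 2.47 with EXO-Palm (exact permutation p = 0.229).

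Of the small GTPases that bring vesicle-laden endosomes to the cell surface, Rab27a was not well above background on any of the 7 arrays and was not tested. Its signal reached at most 30.6 units, which bounds its level without giving one. Rab27b was well above background on all arrays with both of its probes. The probe A_55_P2010116 gave -0.06, -0.48, -0.38 and -0.13 with EXO-BSA and -0.52, -0.39 and -0.51 with EXO-Palm, and the groups overlapped (log2 difference -0.21, limma adjusted p = 0.766). The probe A_55_P2010121 gave -0.26, -0.85, -0.66 and -0.24 with EXO-BSA and -1.05, -0.98 and -0.86 with EXO-Palm. All EXO-Palm arrays lay below the controls here, the nearest of them by less than the spread within either group. The log2 difference was -0.46 (SE 0.225, limma adjusted p = 0.549). Both probes were lower with EXO-Palm on slides 1 and 3, by 0.25 to 0.62 on the log2 scale.

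Flot1, a flotillin of cholesterol-rich membrane domains, gave 2.34, 2.37, 2.20 and 2.62 with EXO-BSA and 2.60, 2.61 and 2.96 with EXO-Palm. EXO-Palm 1 and 2 lay at the top edge of the controls and EXO-Palm 3 above them. The log2 difference was 0.34 (95% interval -0.13 to 0.82, limma adjusted p = 0.624), and it stayed positive under all 31 alternatives that fitted it, from 0.23 to 0.42.

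**Figure D3:**
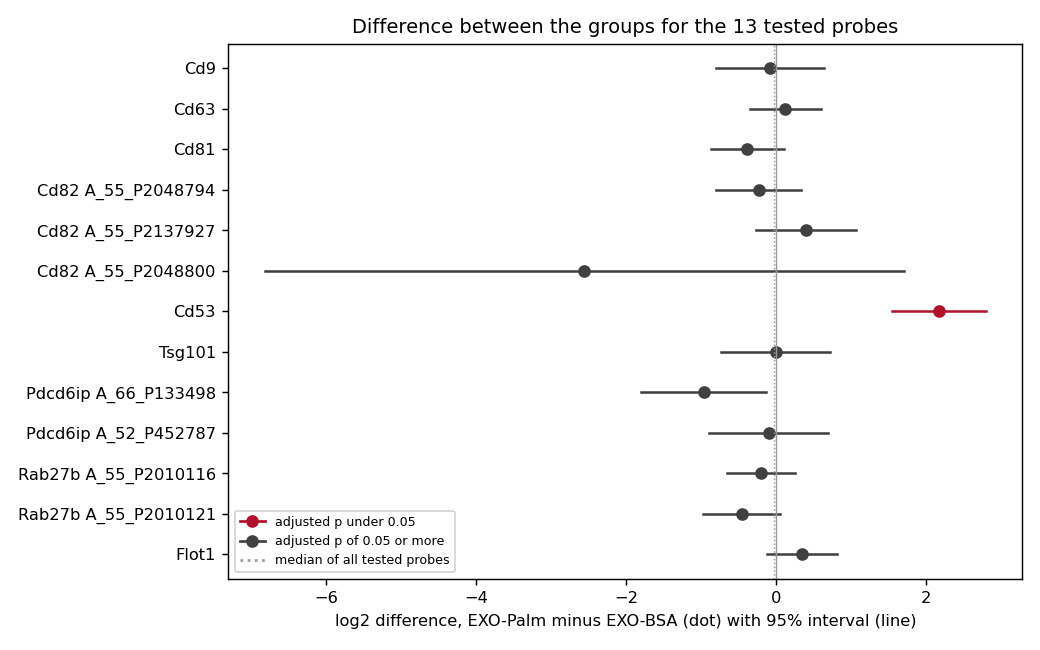
Log2 difference between the groups for the 13 tested probes, EXO-Palm minus EXO-BSA, with its 95% interval from limma (3 against 4 arrays, 2 against 4 for Cd82 A_55_P2048794). Cd53 stands at 2.17 with an interval of 1.54 to 2.80, and the widest interval is that of Cd82 A_55_P2048800.

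For 9 of the 12 probes that did not pass, the 95% interval stayed within a log2 difference of 1 in either direction. The exceptions were Pdcd6ip A_66_P133498, Cd82 A_55_P2137927 and Cd82 A_55_P2048800. Across all 7 arrays the members spread unequally, from a range of 0.46 for Rab27b A_55_P2010116 to 2.75 for Cd53 and 8.95 for Cd82 A_55_P2048800 with its spot marked as not found.

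The rest of the vesicle pathway was taken from 5 lists of genes other than the members, each gene by its brightest tested probe. Of their 136 genes 124 were tested, and none passed by limma, beside 0.533% of all tested probes. At an unadjusted limma p under 0.05 there were 11, 4 higher and 7 lower, beside 4.85% of all tested probes higher and 5.19% lower. The same shares are the comparison for the counts of each list below. Student's t-test gave 9 at that threshold, beside 2108 of all 21589 tested probes, and 0 after adjustment. The median log2 difference was -0.03, beside -0.02 for all tested probes, and the groups did not overlap for 14 of the 124, beside 11.3% of all tested probes. Under 4 limma settings 1 of these genes passed. It was Snap23 without background subtraction, with probes well above background on all arrays and with a trended variance, and Tspan7 without normalisation between arrays.

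Of the 18 other tetraspanins tested, 5 were higher and 13 lower, with a median log2 difference of -0.28. At an unadjusted limma p under 0.05 there were 4, 1 higher and 3 lower, beside 4.85% of all tested probes higher and 5.19% lower. Tspan4, a tetraspanin known from the membrane trails of migrating cells, gave 1.80, 1.81, 1.55 and 1.30 with EXO-BSA and 2.40, 2.17 and 2.82 with EXO-Palm. All of its EXO-Palm arrays were above the controls (log2 difference 0.85, limma adjusted p = 0.247). Tspan7 had the lowest difference, -3.23, through EXO-Palm 2 alone, which stood at -6.42 and not above background while the other 2 EXO-Palm arrays read 2.53 and 3.16 (limma adjusted p = 0.630). The 3 lower at that p, named after their values were seen, were Tspan8 at -0.97 (limma adjusted p = 0.163), Tspan15 at -0.77 (0.444) and Tspan2 at -1.16 (0.463). Tspan8 and Tspan2 were lower on every EXO-Palm array than on any control, as were 5.87% of all tested probes. Tspan2 was not well above background on 1 EXO-Palm array.

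Of the 27 other ESCRT genes tested, 16 were higher and 11 lower, with a median of 0.04 and 1 at an unadjusted p under 0.05. Vps37c and Vps37a, alternative partners of Tsg101 in ESCRT-I, had the highest and the lowest difference, 0.69 (adjusted p = 0.455) and -0.55 (adjusted p = 0.717). With slide as a block Vps37a turned to 0.23.

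The 24 other Rab genes and Rab27 effectors had a median of -0.02, with 11 higher and 13 lower. Sytl3, a synaptotagmin-like protein that binds Rab27, gave -4.74, -4.10, -3.11 and -4.47 with EXO-BSA and -3.51, -1.58 and -2.44 with EXO-Palm. It was well above background on 3 of the 4 controls and its groups overlapped (log2 difference 1.59, limma adjusted p = 0.331). Rab5b, an early endosome GTPase, had the lowest difference of this list, -0.61 (adjusted p = 0.542).

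Of the 25 SNAREs and partners for membrane fusion, 11 were higher and 14 lower, with a median of -0.01. Snap23, a SNARE for fusion at the plasma membrane, gave 2.91, 2.61, 2.56 and 2.30 with EXO-BSA and 1.17, 1.19 and 1.73 with EXO-Palm. Its groups lay clearly apart, with a log2 difference of -1.23 (SE 0.239) and a limma adjusted p of 0.0841, just outside the threshold. Vti1a, a SNARE of endosome and Golgi traffic, had the highest difference, 0.35 (adjusted p = 0.610).

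The 30 other genes of cargo sorting and membrane microdomains had a median of -0.17, with 12 higher and 18 lower. Smpd2, a neutral sphingomyelinase, had the highest difference of the list, 0.62 (adjusted p = 0.382). Igsf8, which binds Cd9 and Cd81 in the membrane, gave 2.63, 2.54, 2.28 and 2.53 with EXO-BSA and 1.78, 1.85 and 1.38 with EXO-Palm. Its groups did not overlap, with a log2 difference of -0.82 (limma adjusted p = 0.198).

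**Figure D4:**
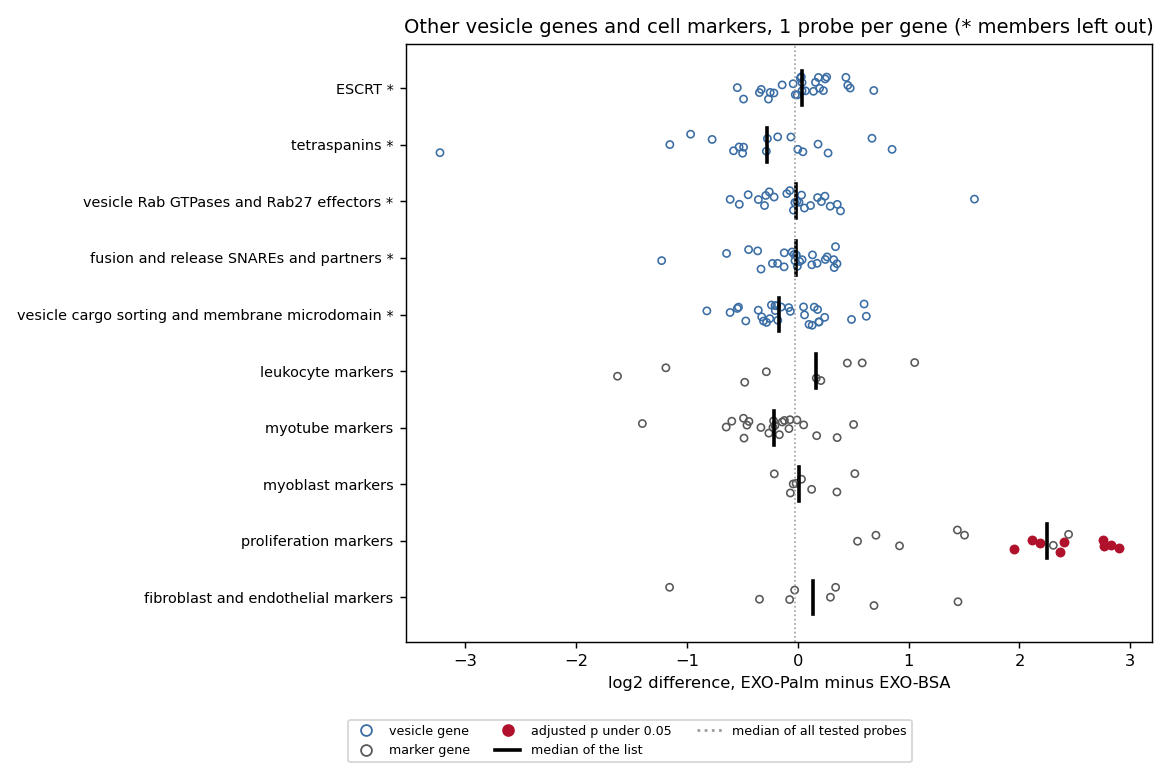
Log2 difference, EXO-Palm minus EXO-BSA, of each tested gene (circles) of the 5 vesicle lists without the members and of 5 lists of cell markers, 1 probe per gene. Black bars are list medians, the dotted line is the median of all tested probes at -0.02, and filled circles passed at an adjusted p of 0.05. These were 9 of the 16 proliferation markers tested and no vesicle gene.

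Markers of the cells bear on Cd53 and were read on the same arrays. In a bulk sample, fewer cells of a type and less RNA per cell cannot be told apart. Of the 19 leukocyte markers on the array 9 were tested, with 5 higher, 4 lower, a median of 0.17 and none past the threshold by limma (2 at an unadjusted p under 0.05). On all 7 arrays 6 of the 19 were well above background, namely Fcer1g, Csf1r, Cd14, Cd37, Itgam and Cd3e. The leukocyte phosphatase Ptprc was so on 1 array of each group, and Laptm5, Lcp1, Tyrobp and Lyz2 on none. The signal summed over the list, in units of the array's 75th percentile, ran from 8.83 to 19.9 with EXO-BSA and from 7.24 to 8.57 with EXO-Palm. Without Itgam, a choice made after its values were seen, the sum ran from 2.98 to 4.89 with EXO-BSA and from 3.74 to 5.87 with EXO-Palm, and the groups overlapped. Within the list Cd14 was at 1.05 (adjusted p = 0.219) and Itgam at -1.63 (adjusted p = 0.111). Csf1r was at 0.45, Emr1 at 0.58, Fcer1g at 0.21 and Cd48 at 0.17, while Cd3e was at -1.19 and Itgb2 at -0.48. Itgam passed under 7 of 32 alternatives, and was lower in all of them. Cd37, counted both here and among the tetraspanins, was at -0.28. The part of leukocyte RNA in the Cd53 difference was not tested.

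Proliferation markers, like Cd53, differed between the groups. All 16 tested were higher with EXO-Palm, 9 of them past the threshold by limma, with a median log2 difference of 2.25. Nuf2, a kinetochore protein, was higher by 2.89 (adjusted p = 0.0112) and Ccnb1, a mitotic cyclin, by 2.76. The others past the threshold were Mki67, Top2a, Ccnb2, Aurka, Bub1, Plk1 and Cdc20, and each of the 9 passed under 14 to 26 of 32 alternatives. The signal summed over all 17 proliferation markers on the array ran from 10.1 to 17.1 with EXO-BSA and from 45.2 to 76.1 with EXO-Palm. Pcna was missing from the sums of EXO-BSA 1 and EXO-Palm 3, where its spots were left out. EXO-Palm 2 was the lowest EXO-Palm array for the sum and for Cd53. The highest was EXO-Palm 3 for the sum and EXO-Palm 1 for Cd53. The part of proliferating cells in the Cd53 difference was not tested.

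Markers from both the myotube and the myoblast list were present, with 20 of 22 and 8 of 10 well above background on all arrays. The remaining myotube markers, Ttn and Mymk, were so on every array where their spot was kept. Of the myoblast markers, Myf5 was well above background on no array and Msc on 1 EXO-Palm array. Of the 22 myotube markers 4 were higher and 18 lower with EXO-Palm, with a median of -0.21 and none past the threshold by limma (4 at an unadjusted p under 0.05). Their summed signal ran from 1297 to 1551 with EXO-BSA and from 1084 to 1235 with EXO-Palm. Ttn was missing from the sum of EXO-BSA 3 and Mymk from that of EXO-BSA 4, their spots there being left out. Neb, the thin filament protein nebulin, was at -1.40 (adjusted p = 0.503) and the intermediate filament gene Des at 0.50 (adjusted p = 0.446). The 8 tested myoblast markers had a median of 0.01, from Pax7 at -0.21 to Vcam1 at 0.51. Of the 8 tested fibroblast and endothelial markers 4 were higher, with Lum at 1.45 (adjusted p = 0.105), and 4 lower, with Pdgfrb at -1.16 (adjusted p = 0.372). The part of any of these in the members' values was not tested.

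**Figure D5:**
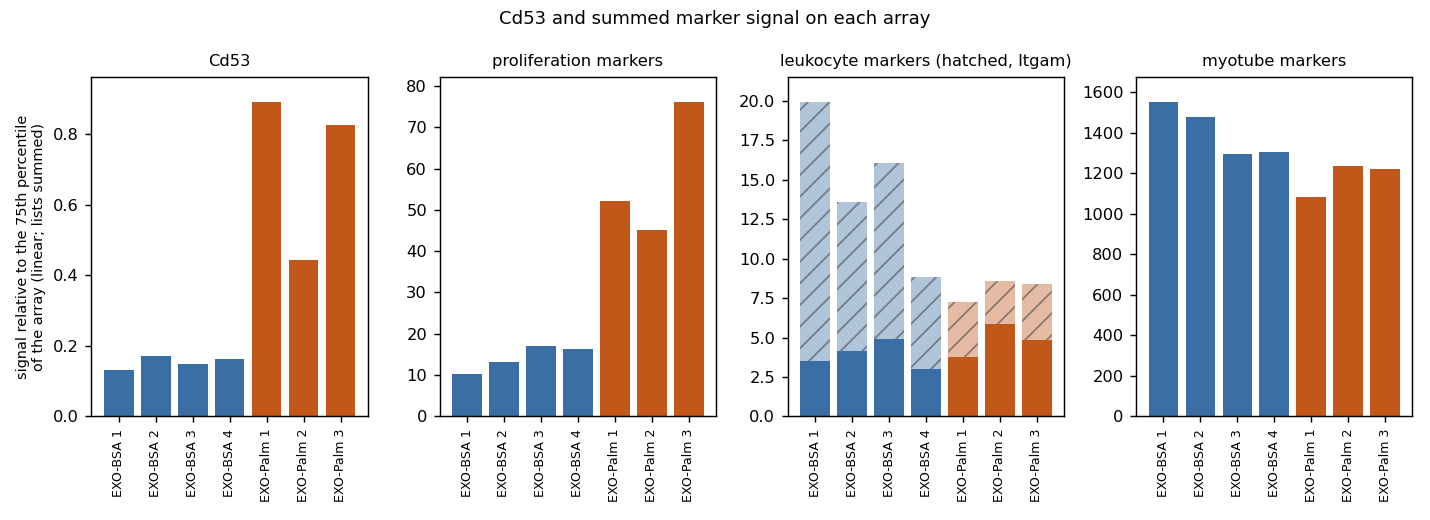
Linear signal of Cd53, and summed signal of proliferation, leukocyte and myotube markers, on each array (bars, blue for EXO-BSA and orange for EXO-Palm), in units of the array's 75th percentile. Proliferation sums rise from at most 17.1 with EXO-BSA to at least 45.2 with EXO-Palm, and leukocyte sums without Itgam, whose share is hatched, overlap between the groups. Pcna is missing from the proliferation sums of EXO-BSA 1 and EXO-Palm 3. Ttn is missing from the myotube sum of EXO-BSA 3 and Mymk from that of EXO-BSA 4.

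The genes whose values ran most like a member were sought among tested probes with a value on all 7 arrays. The measure was the root mean square difference of values centred on each gene's mean. Names beginning as accessions or placeholders, such as LOC, ENS, AK or BC, were left out. Nearest to Cd53 over the 7 arrays were Angptl7 (0.169), Cenpe (0.200) and Dmbt1 (0.201), whose log2 differences between the groups were 2.20, 2.39 and 2.05. Angptl7 read -2.72, -2.03, -2.43 and -2.58 with EXO-BSA and 0.11, -0.67 and -0.18 with EXO-Palm. Like Cd53, its lowest EXO-Palm array was EXO-Palm 2. Nearest to Cd81 was Eno3, the muscle form of enolase (0.0547), with values of 7.23, 6.91, 6.93 and 6.92 with EXO-BSA and 6.42, 6.80 and 6.87 with EXO-Palm. For the other members these were Cited2 for Cd9 (0.0898), Ankzf1 for Cd63 (0.0587), Nfic for Cd82 over the 6 arrays it was read on (0.0223) and Vash2 for Tsg101 (0.0767). Gm11390 was nearest to Pdcd6ip (0.131), Fam118b to Rab27b (0.0507) and 4933424B01Rik to Flot1 (0.0531). Each nearest gene is the best among the probes so searched and describes these arrays alone.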

How the data were processed

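The authors labelled RNA of each culture with Cy3 and hybridised it to 1-colour Agilent mouse arrays. For each array they deposited the intensity written by Feature Extraction, background-subtracted and not normalised between arrays. The labels name version 9.1, while the file headers give 10.7.3.1, and 11.5.1.1 for EXO-BSA 3. A deposited table holds the authors' log2 values, with the same distribution on every array (medians of 6.654 or 6.655). The settings behind it were not given in the sources used here. Its rows were joined to spots by order, with rank correlations of at least 0.9936 with the same array and at most 0.973 with another.

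Here the background-subtracted signal was taken to log2, and each array was centred on its 75th percentile over 43020 spots that are not controls. Spots marked as uneven or outlying were left out and repeated spots averaged. A probe entered the test when 75% or more of the arrays in either group showed it well above background (21589 of 39429 probes). The test was that of limma 3.58.1 (R 4.3.3, prior degrees of freedom 3.67), 2-sided, with Benjamini-Hochberg adjustment over all tested probes and a threshold of 0.05. Single probes also received a 2-sided exact permutation test over 35 splits. The model was tested on simulated data. The figures were drawn with matplotlib 3.10.9.

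The members, the gene lists and the tests were chosen with earlier results of these data known. Named genes are all members, the largest rise and fall of each list, every list gene past the threshold, and the nearest genes. Other leukocyte markers, Tspan2, Tspan8, Tspan15, Myf5 and Msc were named after their values were seen, and Pcna, Ttn and Mymk for spots missing from sums. Cdc2a was not found on the array under that name.

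The 32 alternatives, 24 planned and 8 added after the data were seen, covered background correction, normalisation, the authors' values, the probe filter, slide, replicate number, array weights, the variance model, the test, spot marks, probes of a gene and each array left out. Where the mean signal had been planned for background alternatives, the median signal was used, since the file of EXO-BSA 3 holds no mean. Probe positions are taken as mm9, because the Cd81 probe ends at base 150253796 of chromosome 7, past the last gene of the GRCm38.p6 table. RefSeq accessions of all 14 member probes were found in that table.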

Additional observations from a re-analysis of the deposited data

Results flagged for a closer look

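In Cd9, EXO-BSA 3 stood apart from the other controls. It read 3.44 where they read 3.96 to 4.05 on the log2 scale. This was the 1 value marked by Dixon's test among 42 groups of 4 arrays checked, and chance alone marks about 5% of such groups. The scan of EXO-BSA 3 was read with another version of the scanner software than the other arrays. It was also the only array on slide 2 and had 371 uneven or outlying spots, beside 136 to 267 on the others. These traits cannot be told apart here, and their part in its Cd9 value was not tested.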

How the results depend on the processing

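Of the 31 alternatives that fitted Cd53, its call was lost in 11 and its direction in none, and no other member probe passed in any. Rab27a was too dim to be measured. The calls over all tested probes, 115 as reported, numbered 181 with slide as a random block, 173 with a trended and robust variance and 2108 by Student's t-test without adjustment. They numbered 0 after its adjustment (2108 at an unadjusted p under 0.05) and 0 without a probe filter (1900 by limma at an unadjusted p under 0.05). With arrays left out in turn they ranged from 4 (without EXO-Palm 3) to 228 (without EXO-Palm 2) with the filter applied to the remaining arrays, and from 0 (without EXO-BSA 1; 1583 at an unadjusted p under 0.05) to 202 (without EXO-Palm 2) with the tested probes held. Without EXO-Palm 1 they numbered 7 in both, and without EXO-Palm 3 27 with probes held. Member probes called numbered 0 without normalisation between arrays, without a probe filter and by the adjusted t-test, and 0 to 1 with arrays left out. Other vesicle genes called numbered 1 without background subtraction, without normalisation between arrays, with probes well above background on all arrays and with a trended variance, and 9 by the unadjusted t-test. The members' median was -0.30 with slide as a block, and ran from -0.25 without EXO-BSA 3 to 0.019 without EXO-Palm 3. Without normalisation between arrays the median of all probes was -0.13 in place of -0.02.

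Signs turned as follows. With the normexp background Cd81 was at 0.065 and Tsg101 at 0.13. Without background subtraction Cd63 was at -0.042, Tsg101 at 0.086, Pdcd6ip A_52_P452787 at 0.011 and Pax7 at 0.023. Tsg101 was at 0.018 with quantile normalisation and 0.056 with the authors' values, where Cd81 was at 0.060. Vps37a was at 0.23 with slide as a block, and Pdcd6ip A_52_P452787 at 0.014 with array weights. Cd82 A_55_P2048800 was at 0.36 without spots marked as not found, and the mean of the Cd82 probes was at -1.17. With arrays left out, Cd9 ran from -0.38 to 0.24, Cd82 A_55_P2048794 from -0.47 to 0.011, Cd82 A_55_P2048800 from -4.12 to 0.36, Tsg101 from -0.26 to 0.14, Pdcd6ip A_52_P452787 from -0.37 to 0.084 and Pax7 from -0.51 to 0.030. The causes were not tested.

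The groups share replicate numbers 1 to 3. Arrays with the same number did not deviate together from their group means (correlations of 0.12, -0.15 and -0.15). These correlations gave no sign of a pairing by number, and so few of them cannot exclude it. The highest correlation of EXO-Palm 1 was with EXO-BSA 2 (0.31), of EXO-Palm 2 with EXO-BSA 3 (0.20) and of EXO-Palm 3 with EXO-BSA 4 (0.18). EXO-Palm 1 and EXO-BSA 2 shared slide 1, and EXO-Palm 3 and EXO-BSA 4 shared slide 3, while EXO-Palm 2 and EXO-BSA 3 lay on different slides. A pairing in that order was not tested. With the replicate block there were 0 calls over all probes (1933 at an unadjusted p under 0.05) and 0 member calls, with Cd53 at 2.20 (limma adjusted p = 0.148), Tsg101 at 0.10 and Pdcd6ip A_52_P452787 at 0.084.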
